A study of Mus musculus with 8 samples.

Results

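The genes described here encode 10 neuropeptide precursors, the long proteins from which neurons cut small signalling peptides. They were chosen by symbol, with earlier results of these data known. Cck, Adcyap1, Penk, Pdyn and Nts were taken as peptides of excitatory neurons, and Npy, Sst, Vip, Crh and Tac1 as peptides of inhibitory neurons. They are 10 of the 55471 genes in a table of exonic read counts, and 10 of the 18513 genes in a second table that counts exonic and intronic reads separately. All 10 were found in both tables and passed the filter on low counts over exons and over introns.

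Polyadenylated RNA was sequenced from nuclei of mouse forebrain excitatory neurons, with 4 Pilo and 4 Mock samples. All mice were male C57BL/6J animals aged 6 to 8 weeks, and all carried CaMKIIalpha-Cre with SUN1-sfGFP, a nuclear envelope protein tagged with green fluorescent protein. A promoter most active in forebrain excitatory neurons drives the Cre, and antibodies against the tag pull the nuclei out of a homogenate. Pilo mice received scopolamine methyl nitrate (1 mg/kg) and, 30 min later, pilocarpine (340 mg/kg), a muscarinic agonist that provokes seizures. They then had 100 min to develop seizures, and animals at Racine stages 3 to 5, a behavioural rating, were used. Mock mice received the same scopolamine and then saline. The drug and the seizures came together in every Pilo sample, so their effects cannot be told apart. Nothing in the labels says that every sample came from a different mouse, so the p-values reflect only the variation among these 8 samples, and some of it may be technical.

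The exonic table held 30888035 to 36161448 counts per Pilo library and 29356788 to 35826383 per Mock library. The intronic columns held 11928054 to 14364271 counts per Pilo library and 13321319 to 16703475 per Mock library. Levels are given as CPM, read counts scaled to a common library size by TMM. Replicate 2 of the first table correlated best with replicate 3 of the second, and 3 with 2, in Pilo and in Mock (11434 genes), so each number below is that of the table holding the value. Fos, an early gene that seizures are known to raise, stood at 112 to 186 exonic CPM in Pilo libraries and at 8.29 to 29.2 CPM in Mock libraries, with Mock replicate 4 the highest of its group.

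Neuropeptides are stored in dense core vesicles and released mainly during strong or repeated firing. The precursor enters the secretory pathway, convertases such as Pcsk1 and Pcsk2 cut it at pairs of basic residues, Cpe trims the ends, and the peptides then act on G-protein-coupled receptors. Because released peptide is not taken back up, the store is refilled by new synthesis, and many precursor genes respond to cAMP and calcium through a promoter sequence called the cAMP response element. In the forebrain, Cck and Adcyap1 are made by many excitatory neurons, and Penk and Pdyn by granule cells of the dentate gyrus. Sst, Vip, Npy and Crh mark classes of GABA-releasing interneurons. The division is not strict, since Cck is also made by some interneurons, and Penk, Pdyn and Tac1 by the inhibitory projection neurons of the striatum.

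The promoters of 5 precursor genes are printed here to let the sequences be read beside the values that follow. They are those of 4 genes with large intronic changes and of Pdyn, the gene with the smallest exonic change. Each covers 250 bases before and 50 bases after the RefSeq start site on GRCm38.p6, read 5′ to 3′ along the gene. The windows are chr16:23890795-23891094 (minus strand) for Sst, chr10:5638968-5639267 (plus strand) for Vip, chr10:102490369-102490668 (minus strand) for Nts, chr6:49822460-49822759 (plus strand) for Npy and chr2:129699889-129700188 (minus strand) for Pdyn. Capitals mark matches, on either strand, to the full cAMP response element TGACGTCA, to its core TGACG (read as CGTCA on the other strand, and contained in the full element), or to the AP-1 site TGANTCA.
Sst: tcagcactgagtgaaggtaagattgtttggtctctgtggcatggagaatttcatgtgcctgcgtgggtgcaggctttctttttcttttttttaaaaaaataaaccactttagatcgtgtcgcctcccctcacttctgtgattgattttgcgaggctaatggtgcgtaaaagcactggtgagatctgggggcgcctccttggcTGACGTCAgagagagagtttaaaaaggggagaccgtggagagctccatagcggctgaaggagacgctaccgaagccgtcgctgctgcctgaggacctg
Vip: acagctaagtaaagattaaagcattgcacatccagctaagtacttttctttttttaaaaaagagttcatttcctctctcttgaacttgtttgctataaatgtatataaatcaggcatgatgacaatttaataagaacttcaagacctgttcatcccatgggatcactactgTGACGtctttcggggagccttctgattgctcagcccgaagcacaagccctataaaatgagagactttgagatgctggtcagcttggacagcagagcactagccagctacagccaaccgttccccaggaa
Nts: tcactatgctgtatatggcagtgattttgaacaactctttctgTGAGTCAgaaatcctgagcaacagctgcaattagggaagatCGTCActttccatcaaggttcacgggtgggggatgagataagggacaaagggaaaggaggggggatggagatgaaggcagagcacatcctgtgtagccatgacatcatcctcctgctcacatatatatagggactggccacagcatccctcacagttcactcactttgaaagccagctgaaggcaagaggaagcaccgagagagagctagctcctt
Npy: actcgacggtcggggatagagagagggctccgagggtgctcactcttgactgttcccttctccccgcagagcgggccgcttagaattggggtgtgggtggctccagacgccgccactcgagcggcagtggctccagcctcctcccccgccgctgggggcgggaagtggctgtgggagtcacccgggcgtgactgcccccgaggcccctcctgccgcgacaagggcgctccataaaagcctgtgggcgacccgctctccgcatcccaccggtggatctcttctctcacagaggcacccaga
Pdyn: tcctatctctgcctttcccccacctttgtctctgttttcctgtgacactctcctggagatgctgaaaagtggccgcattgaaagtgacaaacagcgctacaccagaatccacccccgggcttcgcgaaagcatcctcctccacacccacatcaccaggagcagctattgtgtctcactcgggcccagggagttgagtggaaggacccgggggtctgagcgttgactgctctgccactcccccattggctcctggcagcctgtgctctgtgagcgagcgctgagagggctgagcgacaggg

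RefSeq promoter windows were matched for 8 of the 10 genes, with 10 windows in all; Penk and Crh were not among them. The core TGACG was found in 6 of these 8 genes (Cck, Adcyap1, Nts, Sst, Vip and Tac1), while 20.8% of all 32851 windows of the same length hold it. A gene was counted if any of its windows matched, while the shares here and below are of windows, so the units differ. The full element was found in Sst alone of the 8, starting 48 bases before the start site, and 1.79% of all windows hold it. In Vip the core began 79 bases before the start site, and in Cck its match on the opposite strand began 47 bases before it. Nts held an AP-1 site beginning 207 bases before its start, a motif present in 7.81% of all windows. The Egr site GCGNGGGCG, in 5.55% of all windows, matched none of the 8. A match is a run of letters and not evidence that a factor binds there, and these windows leave out anything farther from the start.

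Over exons, 4 of the 10 precursor genes rose in Pilo nuclei: Nts, Adcyap1 and Cck of the excitatory group and Tac1 of the inhibitory group. None of the 10 fell, and at an unadjusted p under 0.05 the counts were 7 higher and 0 lower (edgeR quasi-likelihood test). The share of all genes at an unadjusted p under 0.05 was not counted, here or below. DESeq2 called 5 higher and 0 lower, and limma-voom 4 and 0. Among all 19176 genes tested, 31.8% were called, 15.6% higher and 16.2% lower. The median log2 fold change of the 10 was 0.43, against 0.005 over all genes. Same-numbered libraries of the groups deviated together, and a fit with that number as a block called 9 of the 10 higher, all but Pdyn, against 23.8% of all genes (47.0% called either way). In the exonic columns of the second table the same 4 genes were higher, against 16.5% of all 14239 genes (34.0% either way), and with the block 8 were, against 25.1% (49.9% either way).

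**Figure D1:**
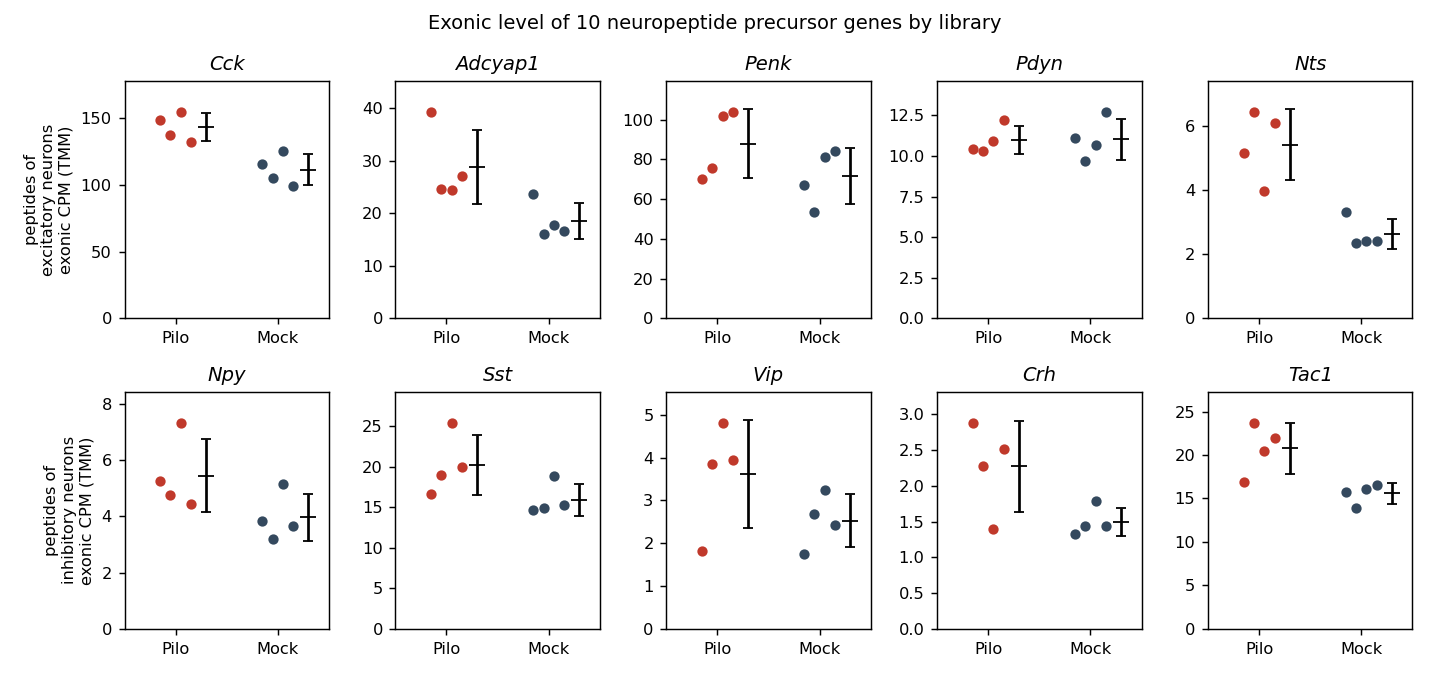
Exonic level of the 10 precursor genes in every library, in CPM, with Pilo left of Mock in each panel, replicates 1 to 4 from left to right, and the mean with its SD as a bar (n = 4 per group). The groups do not overlap for Cck, Adcyap1, Nts and Tac1, and they overlap for the other 6. The share of all genes whose groups do not overlap was not counted.

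Per length, Cck was the highest of the set and Vip the lowest. In Mock nuclei, exonic CPM per kilobase of annotated exon was 75.9 to 95.8 for Cck, 32.7 to 51.7 for Penk and 20.2 to 26.2 for Sst, with no overlap among these 3. Npy at 5.65 to 9.08 overlapped Adcyap1 at 4.24 to 6.25, which overlapped Tac1 at 4.09 to 4.88 and Pdyn at 3.35 to 4.40. Nts followed at 1.88 to 2.66, then Crh at 1.01 to 1.35 and Vip at 0.517 to 0.955, each below the one before without overlap. Penk is the only one of the 10 that shares its span with another annotated gene, A830012C17Rik on the opposite strand. The strand setting of the counting is not given in the sources used here, so reads of that pair cannot be told apart.

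Nts encodes neurotensin and neuromedin N and lies on chromosome 10, 102481756 to 102490486 (ENSMUSG00000019890, minus strand, GENCODE vM21 on GRCm38). Its exonic level was 5.14, 6.43, 3.95 and 6.10 CPM in Pilo libraries 1 to 4, against 3.32, 2.34, 2.40 and 2.41 CPM in Mock libraries 1 to 4. Every Pilo library was above every Mock library, and Nts rose by 1.05 on the log2 scale (SE 0.19, adjusted p = 0.000944, edgeR). Its intronic level was 11.3, 11.7, 18.7 and 14.3 CPM in Pilo libraries, against 1.36, 1.93, 1.23 and 2.22 CPM in Mock libraries. The gap between the groups was much wider over introns, where Nts rose by 3.04 (SE 0.23, adjusted p = 4.36e-07), an 8.24-fold change and the largest of the 10. Intronic reads made up 50.5% ± 3.64 of its reads in Pilo nuclei and 23.1% ± 6.86 in Mock nuclei (SD, n = 4 each), while over all genes that share was 30.0% ± 0.627 in Pilo and 33.0% ± 0.799 in Mock.

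Adcyap1 encodes PACAP, a peptide that raises cAMP in its target cells, and lies on chromosome 17, 93199017 to 93206537 (plus strand). Exonic CPM was 39.3, 24.6, 24.5 and 27.1 in Pilo libraries, against 23.6, 16.0, 17.8 and 16.5 in Mock libraries. The groups did not overlap, and replicate 1 was the highest in both. Adcyap1 rose by 0.64 over exons (SE 0.17, adjusted p = 0.0124) and, without Pilo replicate 1, by 0.46 (adjusted p = 0.0161). Over introns it stood at 24.8, 10.7, 17.1 and 16.0 CPM in Pilo libraries and at 11.1, 7.94, 8.06 and 8.14 CPM in Mock libraries. These overlapped, with Pilo replicate 2 just under Mock replicate 1, and the intronic rise was 0.97 (SE 0.21, adjusted p = 0.00215).

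Cck encodes cholecystokinin, which acts in the brain mainly through the CCK2 receptor (Cckbr), and lies on chromosome 9, 121489824 to 121495694 (minus strand). Its exonic level was 143 ± 10.5 CPM in Pilo and 111 ± 11.6 CPM in Mock nuclei (SD, n = 4 each), with Pilo libraries at 132 to 155 CPM and Mock libraries at 99.0 to 125 CPM. That is a rise of 0.36 (SE 0.09, adjusted p = 0.00633), or 1.29-fold. Over introns Cck stood at 128, 191, 168 and 145 CPM in Pilo libraries and at 74.1, 91.4, 91.9 and 86.7 CPM in Mock libraries. The groups lay well apart there, with a rise of 0.88 (SE 0.12, adjusted p = 6.63e-05), or 1.84-fold.

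The opioid precursors Penk and Pdyn had the smallest log2 fold changes of the 10 in both regions. Penk, which yields the enkephalins, lies on chromosome 4, 4133531 to 4138819 (minus strand). It stood at 70.1, 75.8, 102 and 104 exonic CPM in Pilo libraries, against 67.1, 53.5, 81.4 and 84.5 CPM in Mock libraries, and was higher in Pilo in all 4 same-numbered pairs. Its log2 fold change of 0.30 (SE 0.17) did not pass the test (adjusted p = 0.207), while the blocked fit called it (adjusted p = 0.000868). Over introns Penk was at 31.9 to 41.5 CPM in Pilo and 23.5 to 31.4 CPM in Mock libraries, and rose by 0.43 (SE 0.13, adjusted p = 0.0123). Pdyn, which yields the dynorphins, lies on chromosome 2, 129686565 to 129699844 (minus strand). It was at 11 ± 0.866 CPM in Pilo and 11 ± 1.26 CPM in Mock nuclei over exons (SD, n = 4 each). Its log2 fold change was -0.01 over exons (SE 0.11, adjusted p = 0.957) and -0.06 over introns (SE 0.21, adjusted p = 0.857), and Pilo was the higher library in 2 of 4 pairs in each region.

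The interneuron peptides Sst, Npy, Vip and Crh were higher on average over exons, by 0.34 to 0.60 on the log2 scale, and none of these differences passed the test without the block. Sst encodes somatostatin, an inhibitory peptide of dendrite-targeting interneurons, and lies on chromosome 16, 23889573 to 23890958 (minus strand). Its exonic CPM was 16.6, 18.9, 25.4 and 19.9 in Pilo libraries, against 14.6, 14.9, 18.9 and 15.3 in Mock libraries, with replicate 3 the highest in both groups. The log2 fold change was 0.34 (SE 0.13, adjusted p = 0.0613); with the block adjusted p = 0.00152, without Pilo replicate 1 0.0214 and without Mock replicate 3 0.0235. Npy encodes neuropeptide Y, an inhibitory peptide that seizures are known to raise in the hippocampus, and lies on chromosome 6, 49822710 to 49829507 (plus strand). It stood at 5.26, 4.76, 7.33 and 4.44 exonic CPM in Pilo libraries, against 3.85, 3.20, 5.14 and 3.66 CPM in Mock libraries. The ranges overlapped, and the Npy difference of 0.46 on the log2 scale (SE 0.19, adjusted p = 0.0888) fell short of the threshold, which it passed with the block (adjusted p = 0.00576) and without Mock replicate 3 (0.63, adjusted p = 0.0306).

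Vip encodes vasoactive intestinal peptide, the marker of interneurons that inhibit other interneurons, and lies on chromosome 10, 5639218 to 5647617 (plus strand). Exonic CPM was 1.83, 3.85, 4.81 and 3.94 in Pilo libraries, against 1.76, 2.69, 3.25 and 2.41 in Mock libraries. Replicate 1 was the lowest in both groups, and Pilo was the higher library in all 4 pairs. The log2 fold change was 0.50 (SE 0.27, adjusted p = 0.182), which passed with the block (adjusted p = 0.0143) and without Pilo replicate 1 (0.73, adjusted p = 0.0183). Crh encodes corticotropin-releasing hormone, a stress peptide, and lies on chromosome 3, 19693401 to 19695396 (minus strand). It had 44 to 101 exonic reads per Pilo library and 40 to 67 per Mock library, with Pilo replicate 3 the lowest of its group. Its log2 fold change was 0.60 (SE 0.23, adjusted p = 0.0629), which passed with the block (adjusted p = 0.0394) and without Pilo replicate 3 (0.78, adjusted p = 0.00972).

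Tac1, the precursor of substance P and neurokinin A, was the member of the inhibitory group that rose over exons. It lies on chromosome 6, 7554879 to 7565834 (plus strand). Exonic CPM was 16.9, 23.7, 20.4 and 22 in Pilo libraries, against 15.8, 13.9, 16.1 and 16.6 in Mock libraries, a rise of 0.41 (SE 0.11, adjusted p = 0.0123). Every Pilo library was above every Mock library, the nearest being Pilo replicate 1 and Mock replicate 4. In the second table the exonic groups touched, and that call was lost without Pilo replicate 3 or 4 or Mock replicate 3 (adjusted p = 0.0520, 0.0534 and 0.0543). Over introns Tac1 stood at 19.2 to 25.5 CPM in Pilo and 12 to 14.4 CPM in Mock libraries, and rose by 0.80 (SE 0.14, adjusted p = 0.000344).

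Over introns, 8 of the 10 precursor genes rose and 0 fell, 4 of 5 in each group, against 41.4% of all 13318 genes called, 19.6% higher and 21.9% lower. The blocked fit also called these 8, against 27.7% of all genes higher (56.9% either way). The same 8 and 0 were counted at an unadjusted p under 0.05, by DESeq2 and by limma-voom. Intronic reads come mostly from RNA that has not yet been spliced. The median log2 fold change was 0.92 for the 10 genes, 0.88 for the 5 excitatory and 1.42 for the 5 inhibitory peptides, against -0.004 over all genes.

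**Figure D2:**
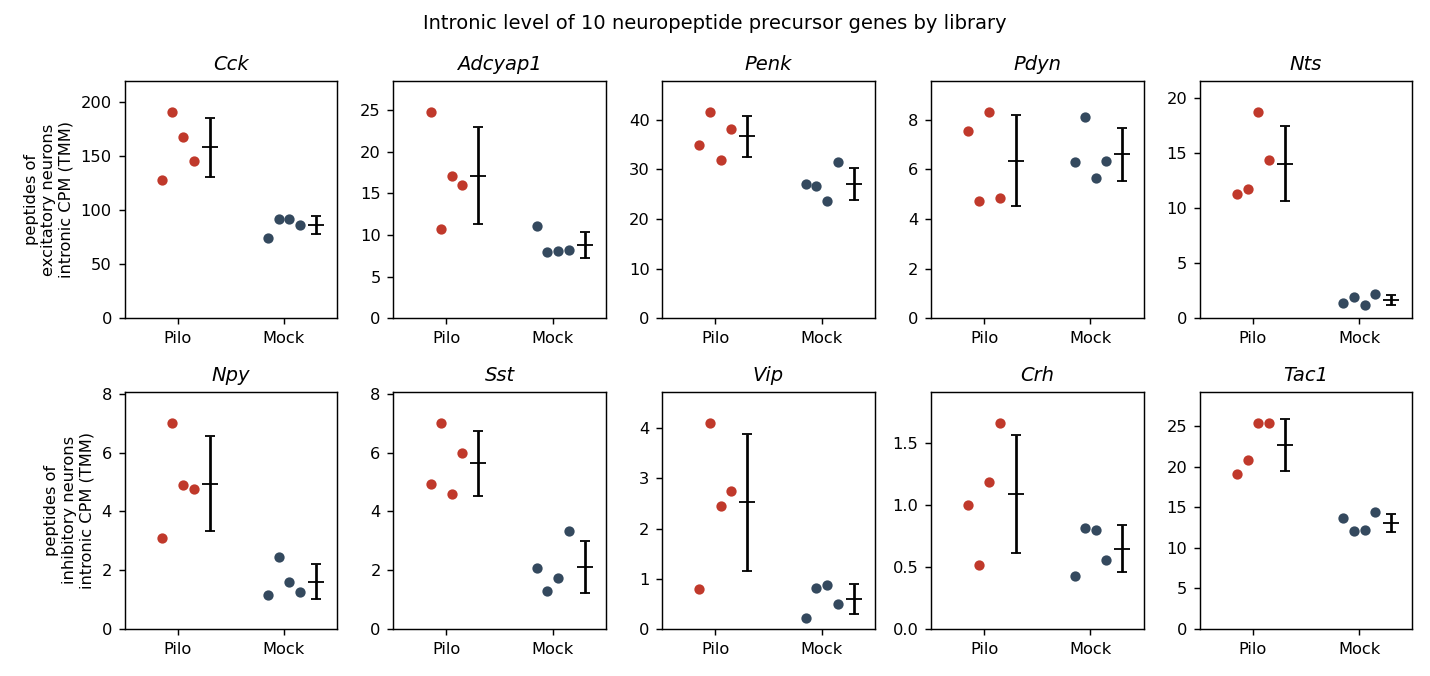
Intronic level of the same genes in every library, drawn as in the plot of exonic levels (numbers of the second table). Nts has the largest fold between the groups, 11.3 to 18.7 CPM in Pilo and 1.23 to 2.22 CPM in Mock, and Pdyn and Crh overlap broadly.

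Vip, Npy and Sst, which did not pass over exons, had large intronic rises. Sst was at 4.94, 7.02, 4.59 and 6.00 intronic CPM in Pilo libraries, against 2.07, 1.28, 1.74 and 3.34 CPM in Mock libraries, a rise of 1.42 (SE 0.28, adjusted p = 0.000859). Npy was at 3.08, 7.02, 4.90 and 4.75 CPM in Pilo libraries, against 1.14, 2.45, 1.60 and 1.25 CPM in Mock libraries, a rise of 1.59 (SE 0.30, adjusted p = 0.000728). In both genes every Pilo library lay above every Mock library. Vip was at 0.788, 4.11, 2.45 and 2.75 CPM in Pilo libraries, against 0.214, 0.817, 0.872 and 0.487 CPM in Mock libraries. The lowest Pilo library fell within the Mock range, and Vip rose by 2.03 (SE 0.48, adjusted p = 0.00307). These values rest on few reads: Vip had 11 to 48 intronic reads per Pilo library and 3 to 14 per Mock library, Npy 43 to 82 and 16 to 42, and Sst 58 to 82 and 22 to 48. Crh had 6 to 20 intronic reads per Pilo library and 6 to 14 per Mock library, and its log2 fold change of 0.73 (SE 0.40) did not pass the test (adjusted p = 0.158).

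The exonic and intronic changes of a gene were compared directly, as the exonic log2 fold change minus the intronic one within the second table. For 6 of the 10 genes the exonic change was the smaller (edgeR, sample as a factor), against 12.8% of all 13047 genes with a difference in that direction, and for 0 of 10 it was the larger, against 13.5% (26.2% either way); at an unadjusted p under 0.05 these were 7 and 0. The difference was -2.01 for Nts (SE 0.22, adjusted p = 6.03e-05), -1.55 for Vip (SE 0.29, adjusted p = 0.00198), -1.16 for Npy (SE 0.24, adjusted p = 0.00333) and -1.12 for Sst (SE 0.25, adjusted p = 0.00567). It was smaller for Cck, at -0.53 (SE 0.13, adjusted p = 0.00987), and for Tac1, at -0.42 (SE 0.10, adjusted p = 0.00646), where it did not pass with the replicate number in place of the sample (adjusted p = 0.0549). Adcyap1, at -0.33 (adjusted p = 0.0803), did not pass, and did so without Pilo replicate 2 (-0.47, adjusted p = 0.00836). Penk at -0.17, Crh at -0.15 and Pdyn at 0.03 did not pass (adjusted p = 0.280, 0.771 and 0.944). The excitatory and inhibitory groups were not tested against each other, as members are not replicates of a group.

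**Figure D3:**
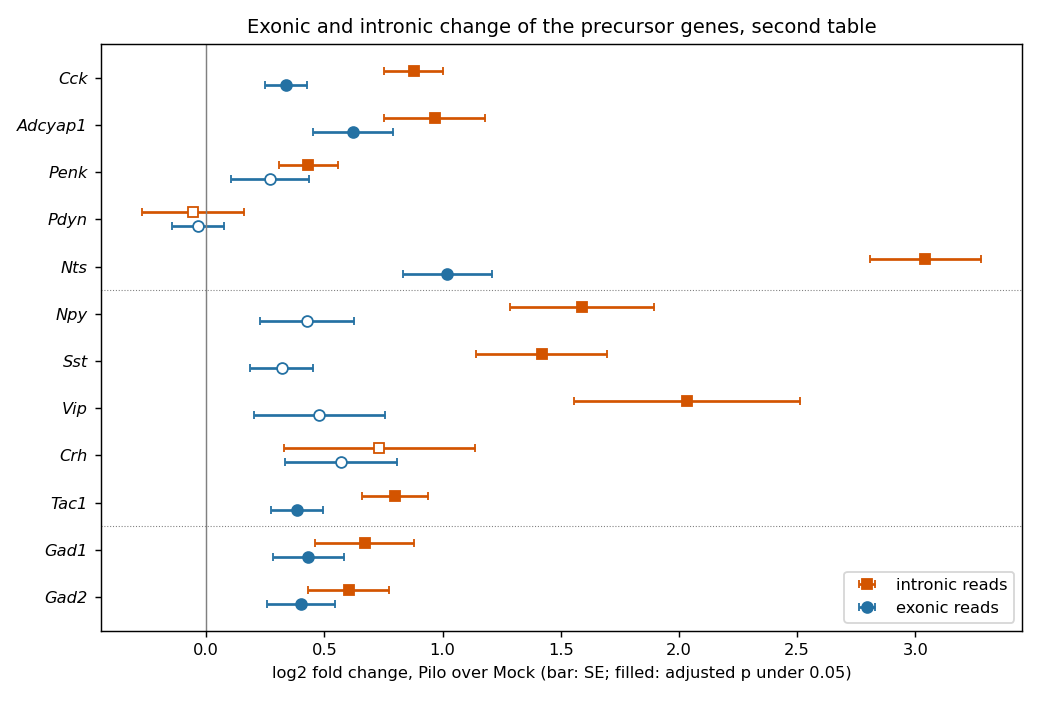
Log2 fold change of Pilo over Mock with its SE for exonic reads (circles) and intronic reads (squares) of the second table; filled symbols passed the test, and dotted lines part the excitatory peptides, the inhibitory peptides and the GABA-making enzymes Gad1 and Gad2. The squares of Nts (3.04), Vip (2.03), Npy (1.59) and Sst (1.42) lie far to the right of their circles (1.02, 0.48, 0.43 and 0.32), while those of Pdyn and Crh lie close to them.

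RNA of interneurons was present in these nuclei, although the tag is driven by a promoter of excitatory neurons, and some interneuron markers were higher in Pilo. All 12 interneuron markers were detected, with a summed exonic level of 242 to 401 CPM in Pilo and 214 to 279 CPM in Mock libraries, and none was at 0. Of the 12, 3 rose over exons, against 15.6% of all genes, and 0 fell, against 16.2% (6 and 0 at an unadjusted p under 0.05; 4 and 0 by DESeq2, 3 and 0 by limma-voom, 8 and 0 with the block, where 23.8% of all genes were higher). Leaving out 1 library gave counts from 0 without Mock replicate 1, and 1 without Pilo replicate 2 or 3 or Mock replicate 2, to 6 without Pilo replicate 1. Among them were Gad1 and Gad2, which make GABA, at 0.46 (SE 0.15, adjusted p = 0.0357) and 0.43 (SE 0.14, adjusted p = 0.0333). Both are also made by the inhibitory projection neurons of the striatum, so they do not mark interneurons alone. The Gad1 call was lost without Pilo replicate 2 or Mock replicate 1, 2 or 4 (adjusted p up to 0.0940), and that of Gad2 without Pilo replicate 3 or 4 or Mock replicate 1 or 2 (up to 0.0804), while both passed with the block (adjusted p = 0.00330 and 0.000194). Gad1 stood at 72.3, 78.7, 118 and 76.4 exonic CPM in Pilo libraries and 67.7, 53.1, 69.2 and 61.2 CPM in Mock libraries, with Pilo replicate 3, the highest for Sst, Npy and Vip, also the highest here. Slc32a1, the vesicular GABA transporter, was at 0.29 (SE 0.12, adjusted p = 0.0832), and passed with the block (adjusted p = 0.00570) and without Pilo replicate 1 (adjusted p = 0.0280). In bulk samples more cells of a type and more RNA per cell cannot be told apart.

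Set against Gad1 and Gad2 in the same library, the interneuron peptides overlapped between the groups in exonic level, and Npy did not in intronic level. Exonic Sst was 15.7% ± 1.06 of the summed Gad1 and Gad2 CPM in Pilo and 16.8% ± 1.97 in Mock nuclei (SD, n = 4 each). The same share was 4.20% ± 0.412 in Pilo and 4.15% ± 0.493 in Mock for Npy, and 2.76% ± 0.782 in Pilo and 2.69% ± 0.728 in Mock for Vip, all with overlapping ranges. Over introns, Npy was at 5.04% to 7.17% of Gad1 and Gad2 in Pilo and 1.93% to 3.99% in Mock libraries, with no overlap. Intronic Sst was at 5.13% to 9.06% in Pilo and 2.09% to 7.61% in Mock, and Vip at 1.29% to 4.15% in Pilo and 0.361% to 1.79% in Mock; these ranges overlapped, while Pilo was the higher in all 4 same-numbered pairs for Npy, Sst and Vip. Crh did not follow them: its intronic share was 0.426% to 2.52% in Pilo and 0.723% to 1.64% in Mock. It was lower in Pilo than in Mock for replicates 2 and 3. Its exonic share was 1.88% ± 0.766 in Pilo and 1.59% ± 0.222 in Mock, with overlapping ranges. No test was run on these shares, which were computed after the data had been seen. Striatal projection neurons also make Gad1 and Gad2, so the base of these shares is not particular to interneurons. Of the 10 interneuron markers tested for a difference between exons and introns, 0 passed (0 at an unadjusted p under 0.05). Over introns 2 of 10 interneuron markers rose and 0 fell, against 19.6% and 21.9% of all genes. These were Gad1 and Gad2, by 0.67 (SE 0.21) and 0.60 (SE 0.17), and the groups overlapped for both. The part of interneuron content in the exonic differences was not tested.

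**Figure D4:**
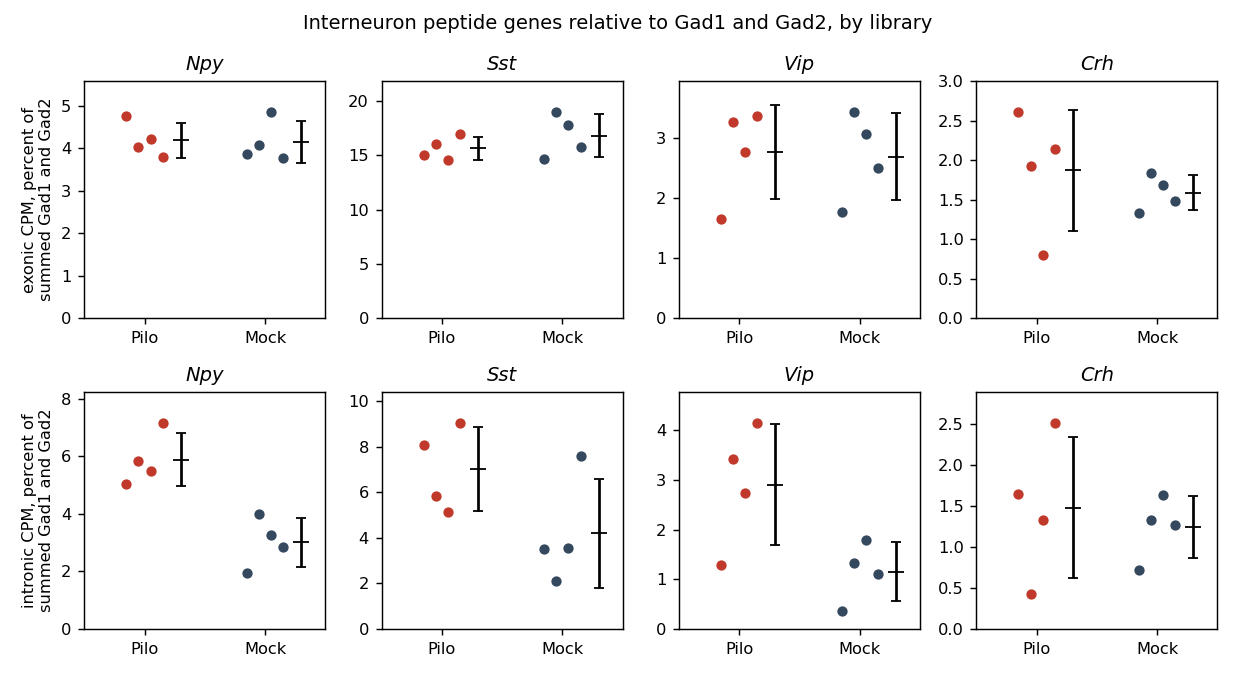
CPM of 4 interneuron peptide genes as a percent of the summed Gad1 and Gad2 CPM of the same library, for exonic reads (upper row) and intronic reads (lower row), with Pilo left of Mock and the mean with its SD as a bar (n = 4 per group). In the upper row the Pilo and Mock points overlap for Npy, Sst, Vip and Crh. In the lower row they overlap for Sst, Vip and Crh and do not overlap for Npy.

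Markers of the targeted excitatory neurons and of other cell types were detected as well. All 9 markers of forebrain excitatory neurons were detected over exons, among them Slc17a7, the cortical vesicular glutamate transporter, at 836 to 935 CPM in Pilo and 884 to 1076 CPM in Mock libraries; over introns Neurod1 was at 0. Slc17a7 was lower in Pilo in all 4 same-numbered pairs, with a log2 fold change of -0.13 that did not pass (adjusted p = 0.287) and did with the block (adjusted p = 0.0493). Of the 9, 4 rose over exons and 2 fell, against 15.6% and 16.2% of all genes, and with the block 5 rose and 3 fell. Slc17a6 (0.69), Neurod2 (0.51), Neurod6 (0.34) and Tbr1 (0.24) were the 4 higher, and Neurod1 (-0.66) and Emx1 (-0.41) the 2 lower, at adjusted p from 0.000125 for Slc17a6 to 0.0304 for Neurod6. The Neurod6 call was lost without Pilo replicate 1 or 3 or Mock replicate 1 or 4 (adjusted p up to 0.0869), that of Tbr1 without Pilo replicate 2 or Mock replicate 2 or 4 (up to 0.0617), and that of Emx1 without Pilo replicate 4 or Mock replicate 1 or 4 (up to 0.0593). The 8 markers of striatal projection neurons, which make Penk, Pdyn and Tac1, summed to 259 to 368 exonic CPM in Pilo and 241 to 333 CPM in Mock libraries. Of these 8, 1 rose over exons and 0 fell, against 15.6% and 16.2% of all genes, and with the block 4 rose and 1 fell. Ppp1r1b, the phosphatase inhibitor DARPP-32, rose by 0.36 over exons (SE 0.09, adjusted p = 0.00974) and by 0.41 over introns (SE 0.12, adjusted p = 0.0137; lost without Pilo replicate 4 or Mock replicate 1, adjusted p up to 0.0612). Adora2a, an adenosine receptor, fell by 0.97 over introns (SE 0.26, adjusted p = 0.00779), and Gpr6 at -0.37 over exons passed only with the block (adjusted p = 0.198 without it and 0.0218 with it). Drd1 and Drd2, the dopamine receptors of these cells, had log2 fold changes of 0.17 (SE 0.12) and 0.35 (SE 0.21), neither past the test (adjusted p = 0.297 and 0.234) without the block and both past it with the block (adjusted p = 0.0441 and 0.0164); Drd2 also passed without Pilo replicate 1 (adjusted p = 0.0224). Their part in the Penk and Tac1 values was not tested. Summed markers of astrocytes, oligodendrocytes, microglia and endothelium overlapped between the groups over exons, at 114 to 304 CPM in Pilo and 111 to 234 CPM in Mock for astrocytes, and 329 to 589 CPM in Pilo and 254 to 351 CPM in Mock for the oligodendrocyte lineage. Over introns the summed microglial markers stood at 175 to 208 CPM in Pilo and 91.8 to 112 CPM in Mock libraries. That sum was almost all Cx3cr1, at 189 CPM in Pilo and 99.6 CPM in Mock on average, while Csf1r and P2ry12 did not pass the test and Tmem119 and C1qa were too low to be tested. Over exons none of the 5 microglial markers was called, also at an unadjusted p under 0.05, by DESeq2, by limma-voom or with the block.

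Of 25 genes for receptors of these and related peptides 24 were tested over exons, and 5 rose and 5 fell, with a median of -0.10. That is close to the 15.6% of all genes called higher and 16.2% called lower. Npy1r and Npy5r, which encode the Y1 and Y5 receptors of neuropeptide Y, fell by 1.01 (SE 0.13, adjusted p = 0.000120) and 0.91 (SE 0.16, adjusted p = 0.000693). Npy1r stood at 23.0 ± 4.38 CPM in Pilo and 46.4 ± 5.73 CPM in Mock nuclei over exons, and at 15.7 ± 3.56 CPM in Pilo and 47.7 ± 8.00 CPM in Mock nuclei over introns (SD, n = 4 each). Oprk1, the dynorphin receptor, fell by 0.58 (SE 0.10, adjusted p = 0.000886). Of the 3 receptors for PACAP and vasoactive intestinal peptide, Adcyap1r1 rose by 0.47 (SE 0.08, adjusted p = 0.000952) and Vipr1 by 0.42 (SE 0.08, adjusted p = 0.00116), while Vipr2 at 0.63 (SE 0.36) did not pass (adjusted p = 0.211). Oprl1, the nociceptin receptor, rose by 0.48 (SE 0.09, adjusted p = 0.00149). The 6 calls named held in every fit that left out 1 library. Over introns 5 of 22 receptor genes rose and 6 fell, against 19.6% and 21.9% of all genes. Npy1r fell there by 1.60, Npy5r by 1.16 and Oprk1 by 0.76, Oprl1 rose by 0.72, and Vipr1 was at -0.12 (adjusted p = 0.335). Adcyap1r1 rose by 0.29 over introns (adjusted p = 0.0233), a call lost without Pilo replicate 3 or 4 or Mock replicate 1 or 3 (adjusted p up to 0.0829).

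Among 36 other peptide precursors, 24 passed the filter over exons, where 5 rose and 1 fell, against 15.6% and 16.2% of all genes. Cartpt, the precursor of the CART peptides, stood at 6.97 ± 0.364 CPM in Pilo and 4.14 ± 0.544 CPM in Mock nuclei (SD, n = 4 each). It rose by 0.75 over exons (SE 0.14, adjusted p = 0.000973) and by 1.36 over introns (SE 0.23, adjusted p = 0.000302). Avp, vasopressin, rose by 1.12 (SE 0.30, adjusted p = 0.0113), with 32 to 69 exonic reads per Pilo library and 16 to 33 per Mock library. Prok2 at 1.73, Adm at 1.17, Nmb at 0.41 and Npff, which fell by 0.59, were called with all libraries but not in every fit that left out 1. The Prok2 call was lost without Pilo replicate 2 or Mock replicate 2, 3 or 4 (adjusted p up to 0.0728), and that of Adm without Pilo replicate 3 or 4 or Mock replicate 1 or 3 (up to 0.0696). The Npff call was lost without Pilo replicate 1 or 4 or Mock replicate 2 or 3 (up to 0.0949), and that of Nmb without any library but Pilo replicate 3 and Mock replicate 2 (up to 0.128). The count of rises fell to 3 without Pilo replicate 4 or Mock replicate 4. With the block 8 of the 24 were higher, against 23.8% of all genes, and 2 lower, and under the minimum count of 50 the counts were 2 and 1. Over introns 15 of the 36 were tested, and 6 rose and 1 fell, against 19.6% and 21.9% of all genes.

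Of the 9 processing enzymes tested, 3 rose over exons and 0 fell, against 15.6% and 16.2% of all genes (3 and 0 also at an unadjusted p under 0.05, by DESeq2 and by limma-voom). They were Furin at 0.88 (SE 0.10, adjusted p = 4.26e-05), Cpe at 0.55 (SE 0.09, adjusted p = 0.000390) and Pcsk1 at 1.05 (SE 0.25, adjusted p = 0.0127), the last not past the test with the block (adjusted p = 0.0537). Over introns Cpe stood at 762 ± 59.2 CPM in Pilo and 216 ± 6.37 CPM in Mock nuclei (SD, n = 4 each) and rose by 1.82 (SE 0.09), with an exonic change that was smaller by 1.29 (SE 0.10, adjusted p = 4.28e-06).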

How the data were processed

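The authors deposited raw read counts per gene in both tables, which were used as deposited. Per the submitters' processing notes, the tools were STAR 2.7.1a, HTSeq 0.11.2, Trimmomatic 0.39, edgeR and R 4.1.1, and the build was mm10; the role of each was not listed. Per the labels' protocols, poly(A) RNA went into directional libraries. Not given in the sources used here are the annotation, the strand setting and how introns were separated. Symbols were matched for 55144 of 55471 Ensembl genes and 18507 of 18513 Entrez genes.

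Each region was fitted over all genes with edgeR 4.0.16 in R 4.3.3: quasi-likelihood F-test (robust), TMM, filterByExpr (minimum count 10), and a threshold of 0.05 after Benjamini-Hochberg adjustment. The SE was taken as the unshrunken coefficient over the root of its F statistic. The exon-intron difference is a region-by-treatment interaction, with the sample as a factor and TMM per region. The edgeR fits of the exonic table, the intronic columns and the exon-intron difference were tested on simulated data. There every gene had the same variation beyond sampling noise, and no replicate effect was put in. The other fits, with the block among them, were not tested in this way. DESeq2 1.42.0 and limma 3.58.1 (voom) served as alternatives. Every pair of replicates differed beyond sampling noise (chi-square 10.1 to 34.2 for each degree of freedom), and all 8 samples were kept apart. Same-numbered libraries, which share a number only in the titles, deviated from their group means together in every pair (r from 0.318 to 0.490); the limit for taking numbers as pairs was an r of 0.1, so blocked values are given where they change a call. The precursor genes, the other lists and the tests were chosen with earlier results of these data known. All 10 precursor genes are named whatever their values; of the other lists those past the exonic test with the smallest p were named (at most 6 precursors, 6 receptors and 4 enzymes), besides label checks and a few fixed markers. A planned description of the precursor proteins was not made. CPM per kilobase used exons of GENCODE vM21.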

Additional observations from a re-analysis of the deposited data

Results flagged for a closer look

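Within-group outliers were sought in 40 groups of 4 libraries (10 genes, 2 regions, 2 treatments), of which chance alone flags about 1 in 20. In 3 groups 1 library stood far from the others. Mock replicate 1 had 11.1 intronic CPM of Adcyap1, while the other Mock libraries had 7.94 to 8.14 CPM. Mock replicate 1 also had 3.32 exonic CPM of Nts, against 2.34 to 2.41 CPM in the others. Mock replicate 3 had 18.9 exonic CPM of Sst, against 14.6 to 15.3 CPM in the others. Each of the 3 was the highest Mock library for its gene.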

How the results depend on the processing

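The count of precursor genes called over exons moved most with the replicate number as a block, to 9 in the exonic table and 8 in the exonic columns of the second table, against 4 in each without it; over introns the block changed no call. Leaving out 1 library gave 4 to 6 called over exons, 3 to 6 in the second table, 8 to 8 over introns and 6 to 7 for the exon-intron difference. Sst passed over exons with no filter and by DESeq2 (adjusted p = 0.0332 and 0.0433). At a minimum count of 50, Npy, Vip and Crh were not tested over introns, leaving 6 called there and 4 for the difference. Of 524 comparisons of a gene's change with an alternative, 483 kept direction and side of the threshold, 4 lost and 22 gained a call. The other 15 changed sign, none of them a called change. For Pdyn over exons the values were 0 under RLE and DESeq2, 0.01 to 0.02 without Pilo replicate 1, 2 or 3 or Mock replicate 1, and 0.07 without Mock replicate 4, with 0.04 in the second table. Pdyn was at 0.05 to 0.07 over introns and -0.13 to -0.11 for the difference without Pilo replicate 2 or 4 or Mock replicate 2 (0.06 and -0.12 among them), and Crh at 0.06 for the difference without Pilo replicate 4. Leaving out each library in turn, Pdyn ranged from -0.07 to 0.07 over exons, -0.09 to 0.04 in the second table, -0.21 to 0.07 over introns and -0.13 to 0.21 for the difference, and Crh from -0.34 to 0.06 for the difference. The cause of these changes was not tested. Intronic counts of Vip, Npy, Sst and Crh were low, which limits the precision of their folds.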
